A study of Mus musculus with 8 samples.

Results

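The SLC25 genes encode the mitochondrial carrier family, mostly proteins of the inner mitochondrial membrane. Through these, nucleotides, coenzymes, amino acids, carboxylates, phosphate and metals pass between cytosol and matrix. Members were all genes of the deposited count table named Slc25a followed by a number, apart from the carnitine carrier Slc25a20 and the peroxisomal Slc25a17. That gave 45 of 25078 genes. By substrate, 15 were placed in a nucleotide and coenzyme class, 11 in an amino acid and glutathione class, 4 in a carboxylate class, 1 (Slc25a3) in a phosphate class, 2 in a metal class and 12 in a class of orphans and members whose substrate is unsettled. Liver RNA had been sequenced from 3 males labelled Midn hemizygotes, titled Het and here called het-labelled, and from 5 wild-type males. All 8 mice were C57/BL6 and were fed a diet of the Western kind, with much fat, fructose and cholesterol, over 25 weeks, so neither group is an untreated liver. The knockout is global, per the series' design text, which states that most homozygous embryos died, so the allele was studied in hemizygotes.

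Carriers of this family share a fold of repeated membrane-spanning units and mostly work as exchangers, taking a molecule in as another leaves. In hepatocytes they link pathways that are divided between matrix and cytosol. The citrate carrier supplies carbon for fatty acid and sterol synthesis, the ornithine and aspartate carriers serve the urea cycle, and the aspartate/glutamate and oxoglutarate carriers move reducing power. ADP/ATP and phosphate carriers serve ATP synthesis.

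Counts per library summed to between 17508221 and 24916239. Midn, the targeted gene, had 60.4, 39.1 and 51.7 CPM (counts scaled to a common library size, here with TMM factors) in het-labelled libraries 1 to 3, against 68.7, 39.8, 71.5, 41.7 and 29.3 CPM in wild-type libraries 1 to 5. Its log2 fold change was 0.00 (95% interval −0.68 to 0.69), so Midn did not separate the genotypes and each direction below is that of the library labels. Wild-type libraries 2, 4 and 5 stood apart by the share of Rpph1, an RNA without a poly(A) tail. It took 0.229 to 0.399% of counts in the het-labelled libraries, against 0.673 to 1.06% in wild-type libraries 2, 4 and 5 and 0.331 and 0.304% in wild-type libraries 1 and 3. Members whose sign differed between these sets of wild-type libraries are given against each set further on.

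Western-diet liver carried transcripts of nearly the whole family, at levels spread over several orders of magnitude. Levels between genes are compared in the authors' RPKM, counts divided by exon length and a constant for the library. Slc25a47, a liver-enriched carrier whose substrate is unsettled, was the highest on average, with 252, 218 and 372 RPKM in het-labelled libraries 1 to 3, against 265, 302, 160.5, 346 and 363 RPKM in the wild-type libraries. It was followed by the ADP/ATP carrier Slc25a5 (206 ± 18.3 RPKM in het-labelled and 159 ± 9.73 RPKM in wild-type livers; SD, n = 3 and n = 5). The glutathione carrier Slc25a39 had 149.6 ± 25.1 and 101 ± 26.3 RPKM in het-labelled and wild-type livers, and the phosphate carrier Slc25a3 had 109.9 to 134.6 RPKM in het-labelled and 79.9 to 106 RPKM in wild-type livers. The ornithine/citrulline carrier Slc25a15 came next with 79.2 ± 15.6 and 81.3 ± 12.7 RPKM, a range that overlapped its neighbour, the aspartate/glutamate carrier Slc25a13 or citrin, at 79.5 ± 14.3 and 59.6 ± 5.42 RPKM. Over the libraries, the ranges of all neighbours among these 6 genes overlapped. In wild-type library 3 the top place was nearly shared, since Slc25a47 had 160.5 and Slc25a5 154.7 RPKM there. These 6 genes made up 64.5% of the family's summed mean RPKM. In all, 4 members averaged at least 100 RPKM, 21 at least 10 RPKM, and 10 lay below 1 RPKM.

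**Figure D1:**
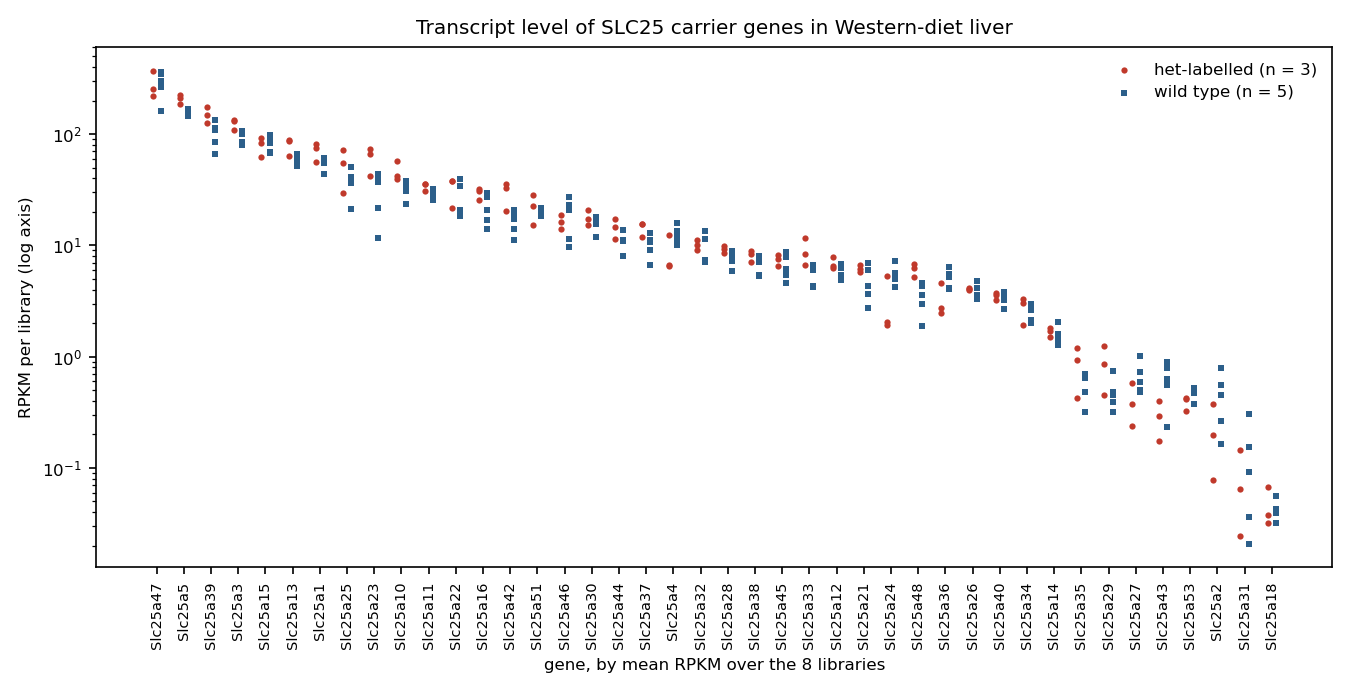
RPKM of 42 SLC25 carrier genes in each of the 3 het-labelled (circles) and 5 wild-type (squares) libraries on a log axis, ordered by the mean over 8 libraries; Slc25a41 and Slc25a54, without counts, and the 0 of Slc25a18 in wild-type library 2 are not drawn. Slc25a47 led with a mean of 285 RPKM, and the points of most genes lie close together beside the range between genes.

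Summed count was below 10 for 3 members. Slc25a41, an ATP-Mg/phosphate carrier, and Slc25a54 had no count in any library, where a count of 0 allows up to 3 counts, or between 0.112 and 0.181 CPM per library, counting error only. The counting mode and annotation are unstated and genes abundant in liver or blood (Ass1, globins) are also near or at 0 in the table, so a listed 0 need not mean an absent transcript. Slc25a18, a glutamate carrier, summed to 9 counts, with 1, 1 and 2 in het-labelled libraries 1 to 3 and 1, 0, 2, 1 and 1 in the wild-type libraries. Slc25a31, the ADP/ATP carrier of testis, summed to 35 counts and also failed the filter on low counts, so 41 members entered the test. The lowest member tested was the ornithine carrier Slc25a2, with 82 counts in all. Slc25a41 stands 2056 bases from Slc25a23 on chromosome 17 and Slc25a54 stands 6566 bases from Slc25a24 on chromosome 3, so each gene without counts neighbours a counted carrier of the same strand.

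No carrier passed the test between genotypes. edgeR's quasi-likelihood test with Benjamini-Hochberg adjustment called 0 of 41 members (smallest adjusted p = 0.259), as it called 0% of all 14438 genes in either direction. Taking the p before adjustment, 11 members were higher in het-labelled livers with p under 0.05, against 10.3% of all genes, and 2 were lower, against 5.43%. A member called nominally higher or lower below has such a p, with no claim after adjustment. The median log2 fold change was 0.31 over the 41 members and 0.00 over all genes tested, with 31 members above 0 where 50.4% of all genes were. Each of the 3 het-labelled libraries lay above every wild-type library in CPM for 5 members (7.54% of all genes) and below for 0 (2.32%). DESeq2 called 0 members (smallest adjusted p = 0.0702), where it called 0.694% of all genes higher and 0.528% lower. By DESeq2's p before adjustment, 11 of 43 members were nominally higher (6.96% of all genes) and 5 nominally lower (7.17%). The count of 11 changed as libraries were left out. Leaving out het-labelled library 1 gave 4, leaving out het-labelled library 3 gave 2, and leaving out wild-type library 2 gave 7, while 16 resulted when het-labelled library 2 was dropped. The count of nominally lower members became 4 on dropping het-labelled library 2, 1 on dropping wild-type library 3 or 4, and 0 on dropping wild-type library 2, het-labelled library 1 or het-labelled library 3. Scaled by library size alone, 1 member was nominally higher and 2 lower; all genes then had a median of −0.18 and the members 0.09. With DESeq2's scaling method (RLE) in edgeR, 10 were higher and 4 lower. For these refits on fewer libraries or other scaling, the share of all genes was not worked out. Their counts are thus not read as particular to the carriers.

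**Figure D2:**
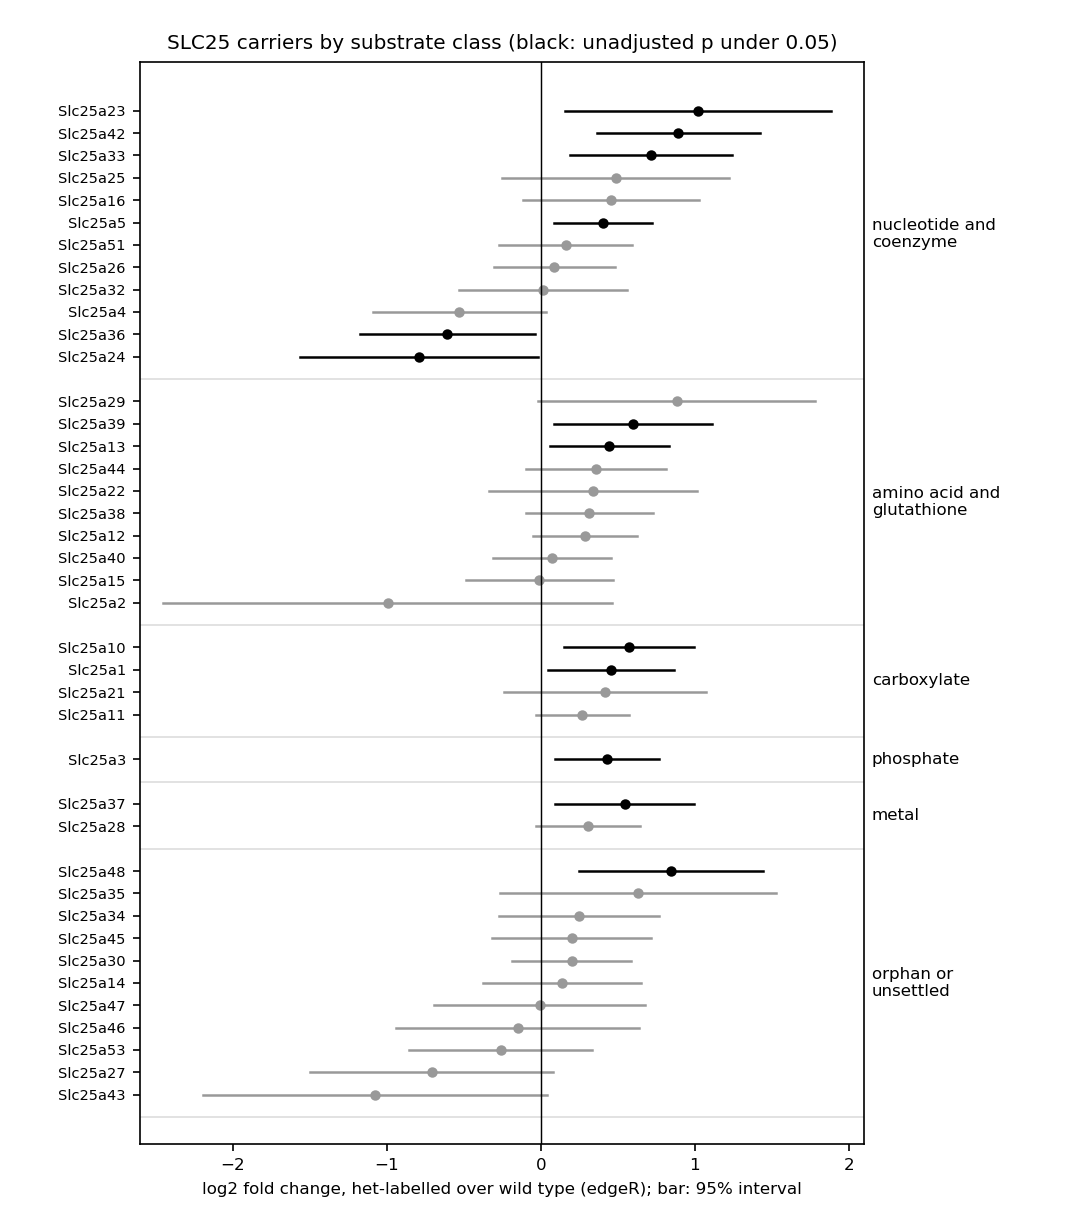
Log2 fold change of 40 tested members, het-labelled over wild type, with 95% intervals from edgeR and grouped by substrate class; black marks an unadjusted p under 0.05. Points lie above 0 for 30 of the members drawn, and the widest interval is that of Slc25a2 (−2.45 to 0.47).

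Nucleotide and coenzyme carriers lay on both sides of 0. Among 13 tested, 4 were nominally higher (10.3% of all genes) and 2 nominally lower (5.43%), with a median log2 fold change of 0.41. Slc25a42, which brings coenzyme A into the matrix (chromosome 8, 70184340 to 70212281, mm10, minus strand), had the smallest p of all members. It stood at 118, 66.6 and 108 CPM in het-labelled libraries 1 to 3, against 58.5, 37.9, 53.9, 67.5 and 45.2 CPM in wild-type libraries 1 to 5. Het-labelled libraries 1 and 3 were above every wild-type library, and het-labelled library 2 lay just under wild-type library 4. On the log2 scale the difference came to 0.89 (SE 0.23; edgeR adjusted p = 0.259), and it ran from 0.74 to 1.11 as each library was left out. Slc25a16, which has been linked to coenzyme A as well, had a log2 fold change of 0.46 (SE 0.25).

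Among the ADP/ATP carriers, which swap cytosolic ADP for matrix ATP, the abundant form was higher in het-labelled livers and the scarce one lower in 2 of 3. Slc25a5 (chromosome X, 36795597 to 36798808, plus strand) had 284, 249.8 and 300.3 CPM in het-labelled libraries 1 to 3, against 221, 201, 196, 221 and 209 CPM in the wild-type libraries. The groups did not overlap. The difference was 0.41 on the log2 scale (SE 0.14; edgeR adjusted p = 0.268). Slc25a4, the form of heart and muscle (chromosome 8, 46207168 to 46211062, minus strand), had 9.17, 17.1 and 9.20 CPM in het-labelled livers, against 14.7, 19.2, 20.7, 16.6 and 13.8 CPM in wild-type livers. Het-labelled library 2 lay inside the wild-type range and the other het-labelled libraries below it (log2 fold change −0.53, SE 0.25; edgeR adjusted p = 0.336). Slc25a5 thus had 31.8, 15.1 and 33.6 times the RPKM of Slc25a4 in het-labelled libraries 1 to 3, against 9.77 to 15.6 times in wild-type libraries.

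Pyrimidine nucleotide carriers parted in the same manner. Slc25a33 had 16.3, 12.9 and 23.0 CPM in the het-labelled libraries, against 12.5, 12.0, 12.1, 8.07 and 8.31 CPM in the wild-type libraries, without overlap (log2 fold change 0.72, SE 0.23; edgeR adjusted p = 0.265). Slc25a36, which carries a like set of nucleotides, had 7.93, 14.5 and 8.72 CPM in the het-labelled libraries, against 12.8, 20.7, 15.5, 12.7 and 17.4 CPM in the wild-type libraries (−0.61, SE 0.25; edgeR adjusted p = 0.301). Only het-labelled library 2 overlapped wild type for Slc25a36. The ratio of Slc25a33 to Slc25a36 was 3.36, 1.44 and 4.30 in het-labelled libraries 1 to 3, against 0.779 to 1.59 in wild-type libraries.

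The bases before the start of these pairs are shown because their members stood on opposite sides within one substrate. Each is the 250 bases upstream of the RefSeq start (GRCm38.p6, the mm10 assembly), 5′ to 3′ on the gene's strand, and the start is the one in the deposited table. Capitals mark 4 motifs, each searched on both strands. The GC box was searched as GGGCGG. The box named CCAAT was searched by those letters. The E-box was searched as CACGTG. The cyclic AMP response element, or CRE, was searched as TGACGTCA. No marked motif overlaps another here. The windows are chr4:149774268-149774517 for Slc25a33, chr9:97111042-97111291 for Slc25a36, chrX:36795347-36795596 for Slc25a5 and chr8:46211063-46211312 for Slc25a4. Slc25a5 lies on the plus strand and the other 3 on the minus strand.
Slc25a33: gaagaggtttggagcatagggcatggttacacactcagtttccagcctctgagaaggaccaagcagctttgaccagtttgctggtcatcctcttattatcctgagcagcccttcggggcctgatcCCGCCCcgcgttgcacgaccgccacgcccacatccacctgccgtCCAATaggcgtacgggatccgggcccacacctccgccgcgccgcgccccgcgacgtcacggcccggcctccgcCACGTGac
Slc25a36: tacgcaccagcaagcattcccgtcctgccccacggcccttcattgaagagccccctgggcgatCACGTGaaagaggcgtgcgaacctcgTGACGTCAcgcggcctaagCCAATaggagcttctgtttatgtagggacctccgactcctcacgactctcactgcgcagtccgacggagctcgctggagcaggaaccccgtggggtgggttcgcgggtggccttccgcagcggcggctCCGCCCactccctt
Slc25a5: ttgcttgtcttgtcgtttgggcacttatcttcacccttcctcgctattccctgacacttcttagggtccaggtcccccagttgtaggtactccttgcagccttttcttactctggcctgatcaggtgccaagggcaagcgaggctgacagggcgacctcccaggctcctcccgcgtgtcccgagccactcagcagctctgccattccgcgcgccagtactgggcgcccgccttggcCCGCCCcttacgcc
Slc25a4: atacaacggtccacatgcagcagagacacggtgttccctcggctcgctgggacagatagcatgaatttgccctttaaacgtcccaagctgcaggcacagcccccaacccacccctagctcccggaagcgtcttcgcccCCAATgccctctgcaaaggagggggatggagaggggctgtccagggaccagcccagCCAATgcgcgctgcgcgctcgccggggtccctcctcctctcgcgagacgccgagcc
Slc25a33 and Slc25a36 each hold an E-box, a GC box and a CCAAT box, and Slc25a36 holds a CRE in addition. Slc25a5 holds a GC box and Slc25a4 holds a pair of CCAAT boxes. RefSeq's promoter table had 34 of the 45 members, among 27025 genes. An E-box stood before 7 of those 34 members (20.6%), against 6.86% of all genes, and a CRE before 2 (5.88%), against 1.77%. A GC box stood before 67.6% of members and 35.4% of all genes, and a CCAAT box before 17 of the 34, against 37.5% of all genes. The median GC content of the windows was 57.4% for members and 52.4% for all promoters. The TATA box (TATAAA) was found before 2 members, Slc25a18 and Slc25a21 (5.88%, against 14.3% of all genes). The NRF1 motif of nuclear respiratory factor 1 was found before Slc25a3 and Slc25a31 (5.88%, against 4.23%). A match describes the letters and is not a measured site.

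ATP-Mg/phosphate carriers, which set the adenine nucleotide content of the matrix, also lay on both sides of 0. Slc25a23 had 257, 146 and 233 CPM in the het-labelled libraries, against 149, 41.8, 121, 135 and 74.5 CPM in the wild-type libraries. Het-labelled library 2 lay within the wild-type range, and wild-type libraries 2 and 5 were the lowest. The log2 fold change of 1.02 (SE 0.38; edgeR adjusted p = 0.274) was the highest among members, with an interval of 0.16 to 1.89. Slc25a24 had 6.77, 18.7 and 7.29 CPM in het-labelled livers, against 14.4, 19.3, 23.8, 19.4 and 17.2 CPM in wild-type livers (−0.79, SE 0.34; edgeR adjusted p = 0.312). It was −1.41 without het-labelled library 2 and −0.53 at the other end as libraries were left out. Slc25a25, another calcium-regulated form, had 318, 129 and 243 CPM in the het-labelled libraries, against 91.0, 187, 209, 174 and 159 CPM in the wild-type libraries, with overlap (0.49, SE 0.33; edgeR adjusted p = 0.459). It was 0.19 without het-labelled library 1 and 0.78 without het-labelled library 2. Slc25a25 overlaps Naif1 on the other strand, so without known strand use reads of the shared stretch cannot be told apart. Naif1 has 427 counts over all libraries, against 31477 for Slc25a25. Slc25a32, a folate and flavin carrier, differed by 0.02 (SE 0.24), and Slc25a26, which carries S-adenosylmethionine, by 0.09 (SE 0.17). Slc25a26 overlaps Lrig1 on the other strand, which has 4163 counts over all libraries, against 1263 for Slc25a26. Slc25a51, the NAD carrier, was nearly constant in wild-type livers at 91.3 ± 3.26 CPM and spread over 132, 69.6 and 105 CPM in the het-labelled libraries.

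**Figure D3:**
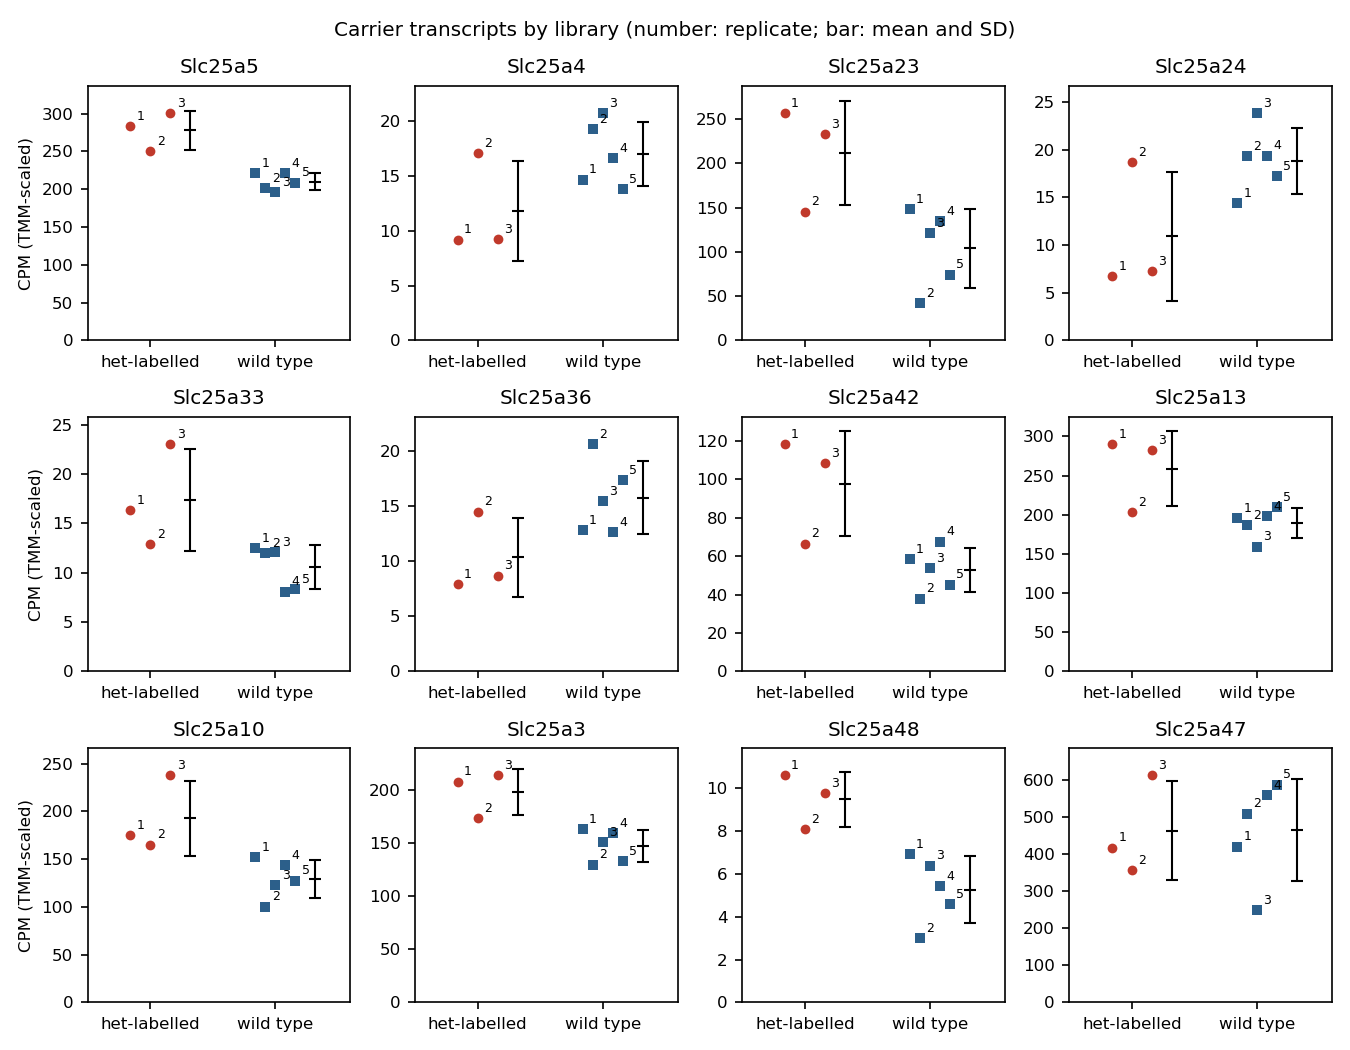
TMM-scaled CPM of 12 members in each library, numbered by replicate, with the mean and SD of 3 het-labelled and 5 wild-type libraries. Slc25a5, Slc25a33, Slc25a10, Slc25a3 and Slc25a48 do not overlap between the groups, while het-labelled library 2 stands with wild type for Slc25a4, Slc25a24, Slc25a36, Slc25a23, Slc25a42 and Slc25a13.

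Of the 10 tested amino acid and glutathione carriers, 2 were nominally higher and 0 nominally lower (median 0.33), against 10.3% and 5.43% of all genes. Citrin, Slc25a13 (chromosome 6, 6041218 to 6217173, minus strand), exports aspartate for the urea cycle and for the malate-aspartate shuttle. It had 290.0, 204 and 282 CPM in het-labelled livers, against 195, 187, 159, 198 and 209.8 CPM in wild-type livers (0.45, SE 0.17; edgeR adjusted p = 0.279). Het-labelled library 2 lay below wild-type library 5 and the other het-labelled libraries above all wild type. Its paralogue aralar, Slc25a12, differed by 0.29 (SE 0.15), and citrin had 10.05 to 13.3 times the RPKM of aralar in het-labelled and 8.30 to 13.5 times in wild-type livers. Slc25a39, which brings glutathione into the matrix, had 261, 215 and 304 CPM in the het-labelled libraries, against 223, 117, 179, 194 and 144 CPM in the wild-type libraries (0.60, SE 0.23; edgeR adjusted p = 0.278). Its paralogue Slc25a40 was at 10.3 ± 0.743 and 9.78 ± 1.52 CPM in het-labelled and wild-type livers (SD, n = 3 and n = 5).

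Slc25a15, the ornithine/citrulline carrier of the urea cycle, did not separate the genotypes. It had 367, 243 and 326 CPM in the het-labelled libraries, against 258, 394, 257, 323 and 339.9 CPM in the wild-type libraries, and the log2 fold change of −0.01 had an interval of −0.49 to 0.47. The glutamate carrier Slc25a22 overlapped as well, with 117, 65.9 and 118 CPM in het-labelled livers, against 102, 61.3, 115, 62.6 and 55.7 CPM in wild-type livers (0.34, SE 0.30; edgeR adjusted p = 0.561). Slc25a44, a carrier of branched-chain amino acids, and the glycine carrier Slc25a38 differed by 0.36 (SE 0.20) and 0.32 (SE 0.18). The basic amino acid carrier Slc25a29 was scarce, at 2.58, 0.915 and 1.76 CPM in het-labelled libraries, against 0.670 to 1.48 CPM in wild-type libraries (0.88, SE 0.40). Slc25a2 differed by −0.99 (SE 0.65) on 0.108 to 0.524 CPM in het-labelled and 0.222 to 1.13 CPM in wild-type libraries.

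Each of the 4 carboxylate carriers had a positive log2 fold change (50.4% of all genes), and 2 were nominally higher (10.3%). The citrate carrier Slc25a1 (chromosome 16, 17925211 to 17928219, minus strand) had 131, 96.6 and 143 CPM in the het-labelled libraries, against 93.6, 78.4, 72.7, 99.4 and 105 CPM in the wild-type libraries. Het-labelled library 2 lay inside the wild-type range (0.46, SE 0.18; edgeR adjusted p = 0.286). The dicarboxylate carrier Slc25a10, which trades malate and succinate for phosphate (chromosome 11, 120491837 to 120501161, plus strand), had 175, 165 and 238 CPM in het-labelled livers, against 152, 100.4, 123, 144 and 128 CPM in wild-type livers. The groups did not overlap (0.57, SE 0.19; edgeR adjusted p = 0.265). The oxoglutarate/malate carrier Slc25a11 differed by 0.27 (SE 0.13) and the oxodicarboxylate carrier Slc25a21 by 0.42 (SE 0.29). Summed over the class, RPKM was 158, 132 and 181 in the het-labelled libraries, against 124, 101, 104, 129 and 131 in the wild-type libraries.

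The phosphate carrier Slc25a3, which also brings in copper (chromosome 10, 91116574 to 91123967, minus strand), had 207, 173 and 213 CPM in the het-labelled libraries, against 163, 129.5, 151, 159 and 133 CPM in the wild-type libraries. Every het-labelled library was above every wild-type library (0.43, SE 0.15; edgeR adjusted p = 0.268). Of the mitoferrins, which bring iron in for haem and iron-sulphur clusters, Slc25a37 had 68.0, 51.2 and 67.8 CPM in het-labelled livers, against 53.5, 29.5, 44.0, 47.6 and 39.1 CPM in wild-type livers (0.54, SE 0.20; edgeR adjusted p = 0.273). Slc25a28 differed by 0.31 (SE 0.15). Erythroid cells are known for high mitoferrin 1. Among erythroid markers, 4 globin genes were listed at 0 in every library, and the part of counting or annotation in those zeros was not tested. Alas2, the erythroid enzyme of haem synthesis, averaged 76.7 CPM in het-labelled and 41.7 CPM in wild-type livers, without overlap. The part of blood cells in the Slc25a37 values was not tested.

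Among 11 tested orphan and unsettled members, 1 was nominally higher and 0 nominally lower (median 0.14), near the 10.3% and 5.43% of all genes. Slc25a48 (chromosome 13, 56438355 to 56472363, plus strand) had 10.6, 8.07 and 9.77 CPM in the het-labelled libraries, against 6.93, 2.99, 6.39, 5.44 and 4.58 CPM in the wild-type libraries. The groups did not overlap (0.85, SE 0.26; edgeR adjusted p = 0.263). Slc25a47, first in abundance, had 417, 357 and 613 CPM in het-labelled livers, against 420.2, 509, 249, 559 and 588 CPM in wild-type livers, and a log2 fold change of −0.01 (95% interval −0.69 to 0.68). Slc25a27 and Slc25a43 had fold changes of −0.71 (SE 0.35) and −1.08 (SE 0.50) on the log2 scale, and Slc25a43 stood at 0.230 to 0.524 CPM in het-labelled and 0.301 to 1.18 CPM in wild-type libraries. The remaining tested members of this class lay between −0.26 for Slc25a53 and 0.63 for Slc25a35. Slc25a35 overlaps Rangrf and Slc25a53 overlaps Zcchc18 in the deposited coordinates.

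Carriers that share a substrate were set against each other as a ratio of RPKM within each library. The ratio removes library scaling, and RPKM already divides each count by exon length. Of 9 pairs of paralogues, Slc25a22/Slc25a18 had a library at 0, and the other 8 overlapped between genotypes. The differences of the mean log2 ratio, het-labelled minus wild type, were 0.98 for Slc25a5/Slc25a4, 1.34 for Slc25a33/Slc25a36, 1.38 for Slc25a25/Slc25a24 and 0.14 for Slc25a13/Slc25a12. Those of the other pairs were 1.07 for Slc25a15/Slc25a2, 0.68 for Slc25a23/Slc25a25, 0.54 for Slc25a39/Slc25a40 and 0.24 for Slc25a37/Slc25a28. Slc25a2 had only 82 counts in all. Slc25a23/Slc25a24, added after its values were seen, was 38.1, 7.85 and 32.2 in het-labelled libraries 1 to 3, against 10.4, 2.179, 5.11, 7.01 and 4.35 in the wild-type libraries. For Slc25a5/Slc25a4, Slc25a33/Slc25a36, Slc25a25/Slc25a24 and Slc25a23/Slc25a24, het-labelled library 2 was within the wild-type range, and het-labelled libraries 1 and 3 were above it. Slc25a23/Slc25a25 had ratios of 1.02, 1.42 and 1.21 in the het-labelled libraries, all inside the range of 0.282 to 2.06 in the wild-type libraries.

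**Figure D4:**
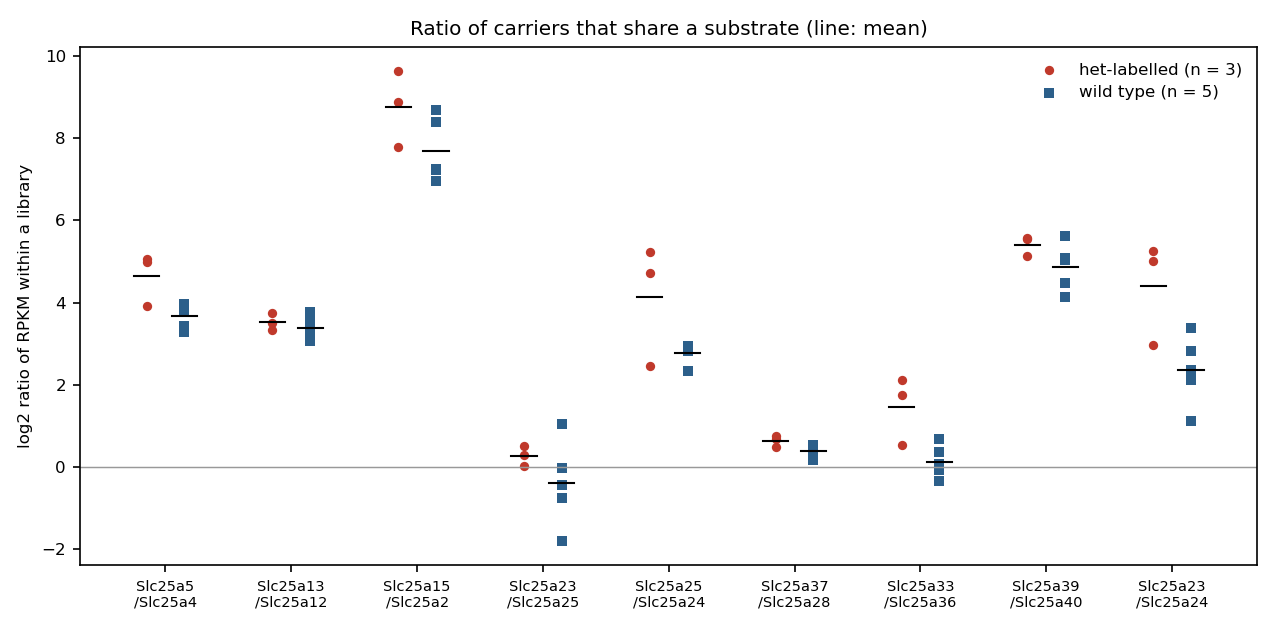
Log2 ratio of RPKM between carriers of a shared substrate, per library, for 3 het-labelled (circles) and 5 wild-type (squares) livers with their means as lines. Het-labelled libraries 1 and 3 lie above every wild-type library for Slc25a5/Slc25a4, Slc25a25/Slc25a24, Slc25a33/Slc25a36 and Slc25a23/Slc25a24, and het-labelled library 2 overlaps.

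For several members the direction depended on which wild-type libraries were used. Wild-type libraries 2, 4 and 5 all lay above wild-type libraries 1 and 3 for 11 of the 41 members, and all below for 5, against 31.1% and 31.8% of all genes. Both shares of members were under those of all genes. How many of all genes changed sign between the sets was not counted. The changes below are thus not called particular to the carriers. Slc25a46, a member of the outer membrane known for its part in mitochondrial fission (chromosome 18, 31580164 to 31610532), had 77.1, 65.2 and 88.5 CPM in het-labelled livers, against 51.3 and 42.7 CPM in wild-type libraries 1 and 3 and 101, 107 and 125 CPM in wild-type libraries 2, 4 and 5. Every het-labelled value lay between these sets. Set against wild-type libraries 1 and 3, its log2 fold change came to 0.65 (SE 0.15; edgeR adjusted p = 0.0761), and it was −0.58 (SE 0.15; edgeR adjusted p = 0.0377) against wild-type libraries 2, 4 and 5. Both fits use the same het-labelled libraries. Slc25a32 gave 0.48 (SE 0.12) and −0.30 (SE 0.13), and Slc25a47 0.40 (SE 0.32) and −0.30 (SE 0.22), in the same order. The glutamate carrier Slc25a22 went the other way, with −0.18 (SE 0.25) and 0.69 (SE 0.21). Against the same sets, Slc25a15 gave 0.21 (SE 0.20) and −0.23 (SE 0.18), and Slc25a45, whose substrate is unsettled, gave 0.57 (SE 0.15) and −0.08 (SE 0.16). Slc25a14 gave 0.27 and −0.03, Slc25a26 0.24 and −0.09, and Slc25a40 0.25 and −0.11. Slc25a16 and Slc25a21 stayed above 0 but differed in size, with 0.92 (SE 0.15) and 0.96 (SE 0.17) against wild-type libraries 1 and 3, and 0.14 (SE 0.15) and 0.07 (SE 0.17) against wild-type libraries 2, 4 and 5.

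Slc25a42, Slc25a48 and Slc25a39 were among many members with a positive value against each set. Slc25a1, Slc25a3, Slc25a5, Slc25a10, Slc25a13, Slc25a23 and Slc25a37 were further examples. Slc25a42 gave 0.73 (SE 0.24) against wild-type libraries 1 and 3, and 0.91 (SE 0.27) against wild-type libraries 2, 4 and 5. Slc25a48 gave 0.45 (SE 0.18) and 1.08 (SE 0.25; edgeR adjusted p = 0.0295), and Slc25a39 0.31 (SE 0.19) and 0.73 (SE 0.21; edgeR adjusted p = 0.0485). Against wild-type libraries 2, 4 and 5 edgeR called 2 of 39 members higher (8.4% of all genes) and 1 lower (10.5%), and before adjustment 12 were nominally higher (18.8%) and 3 lower (18.7%). Against wild-type libraries 1 and 3 it called 0 of 40 members (0.0956% of all genes higher and 0.0478% lower; smallest adjusted p = 0.0664). In that fit 10 members were nominally higher and 2 nominally lower (16.7% and 14.9% of all genes).

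**Figure D5:**
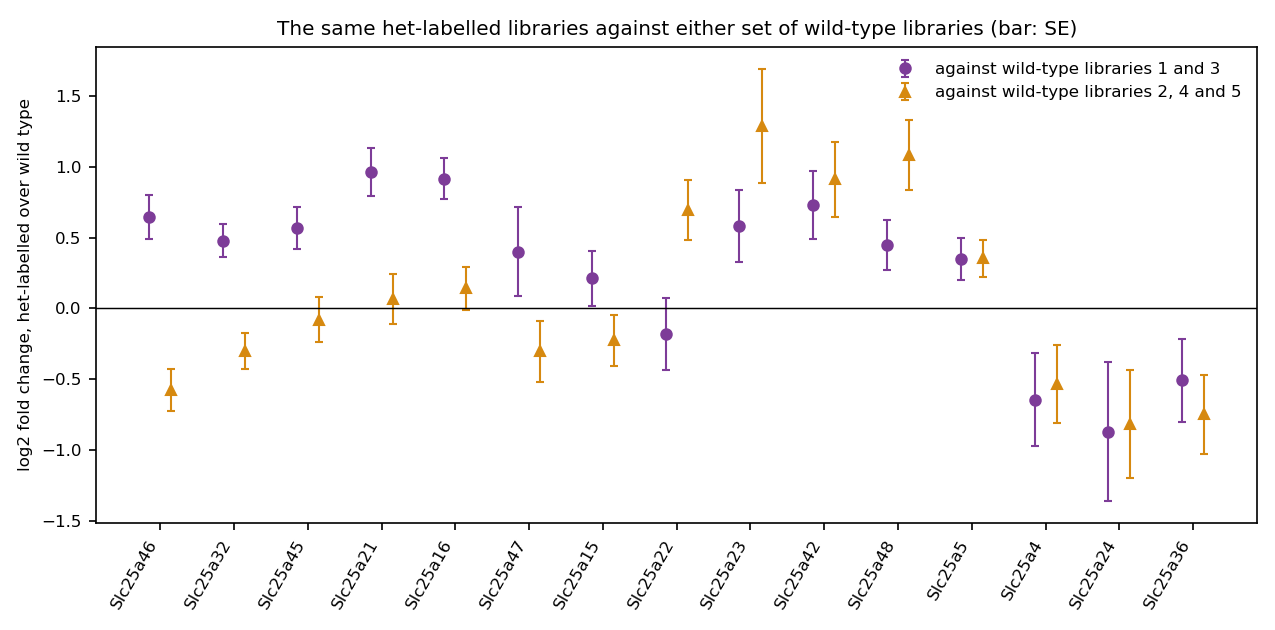
Log2 fold change with SE of 15 members when the same 3 het-labelled libraries were set against wild-type libraries 1 and 3 (circles) or 2, 4 and 5 (triangles). Slc25a46 lies at 0.65 against the first set and at −0.58 against the second, while Slc25a42, Slc25a48 and Slc25a5 lie above 0 and Slc25a4, Slc25a24 and Slc25a36 below 0 in each.

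Genes that work beside the carriers were described from lists chosen with earlier results known. Over all genes tested, 10.3% were nominally higher and 5.43% nominally lower. The remaining relatives of the family included Slc25a20 and Slc25a17, which had differences of 0.75 (SE 0.18) and 0.55 (SE 0.12), and the insertase Mtch2 at 0.31; 2 of 5 tested were nominally higher and 0 lower. Of 17 other mitochondrial carriers and channels, 6 were nominally higher and 0 lower (median 0.16), led by the transporter Abcb10 (0.64), the sideroflexin Sfxn5 (0.81) and the ion exchanger Letm1 (0.68). The pyruvate carrier subunits Mpc1 and Mpc2 differed by −0.58 (SE 0.60) and −0.06. Carrier import genes, which encode the TOM and TIM22 machinery, had 4 of 15 nominally higher and 0 lower (median 0.02), with Tomm6 (0.45), Tomm40 (0.44) and Timm13 (0.42) smallest in p. Redox shuttle enzymes had 3 of 6 nominally higher. These were mitochondrial Got2 (0.62) of the malate-aspartate shuttle and both enzymes of the glycerophosphate shuttle, mitochondrial Gpd2 (0.49) and cytosolic Gpd1 (0.68). Got1 and Mdh1, the cytosolic enzymes of the malate-aspartate shuttle, lay at −0.58 (SE 0.49) and −0.55 (SE 0.54), short of that p.

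Urea cycle genes had 1 of 7 tested nominally higher, Nags (0.53), with a median of −0.16, and Ass1 was listed at an average of 0.256 and 0.363 CPM in het-labelled and wild-type livers, although it is abundant in liver. Whether counting or annotation set the values of Ass1 was not tested. Citrate and lipogenesis partners had 2 of 8 nominally higher, citrate synthase Cs (0.54) and Aco1 (0.42). Acly, which cleaves the citrate that Slc25a1 exports, and fatty acid synthase Fasn differed by 0.07 and 0.02. Genes of mitochondrial content and biogenesis had 2 of 15 nominally higher, Twnk (0.51) and Phb2 (0.44), and a median of 0.08, against 0.31 for the carriers. The counts of these lists stand beside 10.3% of all genes nominally higher.

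Cell type markers varied between the libraries as well, and fewer cells of a type and less RNA per cell cannot be told apart in bulk liver. The 4 hepatocyte markers summed to 61234, 34441 and 52276 CPM in het-labelled libraries 1 to 3, against 29903 to 36819 CPM in wild-type libraries, so het-labelled library 2 was within the wild-type range, as for many carriers. Alb made up most of that sum, with 53252, 29292 and 44074 CPM in het-labelled libraries 1 to 3. All 4 hepatocyte markers had positive log2 fold changes (median 0.48). Ttr, the transthyretin gene, had 2717, 1974 and 2910.1 CPM in the het-labelled libraries, against 1128 to 1879 CPM in the wild-type libraries, so every het-labelled library lay above wild type (0.85, SE 0.23; edgeR adjusted p = 0.259). The 4 bile duct markers summed to 15.2, 45.6 and 16.01 CPM in the het-labelled libraries, against 12.4 to 100.1 CPM in the wild-type libraries, and their fold changes were negative for 4 of 4. Macrophage markers summed to 201 to 221 CPM in het-labelled and 142 to 477 CPM in wild-type livers, and T and NK markers to 1.62 to 4.63 and 1.92 to 10.3 CPM. Positive fold changes were found for 0 of 4 macrophage markers and 0 of 3 T and NK markers. Stellate markers summed to 135 to 315 CPM in het-labelled and 135 to 393 CPM in wild-type livers, and endothelial markers to 228 to 329 and 213 to 278 CPM. Of these, 2 of 3 stellate and 3 of 3 endothelial markers had positive fold changes. Nominal calls among the hepatocyte, bile duct, macrophage, T and NK, stellate and endothelial markers were 1 higher (hepatocyte) and 1 lower (T and NK). Of all genes, 10.3% were nominally higher, 5.43% were nominally lower and 50.4% had a positive fold change. Ucp1 was at 0 in every library and the 3 muscle markers summed to at most 0.178 CPM, although Slc25a4 is best known from muscle. Cidea, listed with Ucp1, had 5.38 to 44.6 CPM in het-labelled and 0.266 to 17.5 CPM in wild-type livers. The part of cell composition in the carrier values was not tested.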

How the data were processed

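Per the labels' protocols, liver was kept in RNAlater, RNA was DNase-treated and libraries came from KAPA mRNA HyperPrep kits. The build mm10 and the tools HTSeq, STAR and bcl2fastq 2.18.0.12 are named in the submitters' processing notes. Not given in the sources used here are the versions of STAR and HTSeq, the annotation, the counting mode and strand use. The authors deposited raw counts per gene and RPKM values. Each RPKM equals count over exon length and a constant per library, which corresponds to 0.888 to 1.25 times that library's count total. Groups follow the genotype label, replicates are numbered in accession order, and nothing in the labels describes litters or batches, so p-values reflect only how these samples vary. Replicate pairs differed by at least 22.9 chi-square per degree of freedom, so each library counts once. Unused sample columns numbered 0.

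The members, lists and alternatives were chosen with earlier results of these data known. Counts were filtered by filterByExpr (minimum count 10, total 15), which kept 14438 of 25078 genes, scaled by TMM and fitted with robust quasi-likelihood dispersion in edgeR 4.0.16 (two-sided; threshold 0.05 after Benjamini-Hochberg adjustment over all genes tested). SE is the log2 fold change over the root of F. Alternatives were RLE or no scaling, DESeq2 1.42.0, limma 3.58.1 (voom, or log2 RPKM with a pseudocount of 0.1 or 1), other filters, non-robust fits, a threshold of 0.10 and leaving libraries out. The procedure was tested on simulated data. R was 4.3.3, Python 3.11.15 and matplotlib 3.10.9. Values in every library are given for up to 6 members per direction with the smallest unadjusted p under 0.05, the 6 with the highest mean RPKM and 8 chosen for liver roles; Slc25a4, Slc25a23, Slc25a37 and Slc25a46 were added after their values were seen. Other lists name up to 3 genes by smallest p, while Mpc1, Mpc2, Got1, Mdh1, Ass1, Acly and Fasn were added after their values were seen. Of 108 symbols in 16 lists, 2 were not in the tables. The values of 1 member, which stays in the counts and medians, and of 1 marker gene are not reported here.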

Additional observations from a re-analysis of the deposited data

How the results depend on the processing

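The 15 members named by the rule kept their sign with DESeq2, limma-voom, RLE, unscaled library sizes, log2 RPKM with either pseudocount, the 1 CPM filter and the non-robust fit. Without a filter Slc25a15 was at 0.0064 and Slc25a47 at 0.0089. As single libraries were left out, Slc25a15 ran from −0.14 to 0.15 and Slc25a47 from −0.26 to 0.15. Against wild-type libraries 1 and 3, Slc25a15 was 0.21, Slc25a47 0.40 and Slc25a22 −0.18. Slc25a46, outside those 15, ran from −0.36 to 0.03 as single libraries were left out. Beside Slc25a24 and Slc25a25, other members given in every library also moved by over 1.5 times as single libraries were left out. Slc25a22 was at 0.57 when het-labelled library 2 was dropped. It was at 0.21 to 0.22 on dropping wild-type library 2, het-labelled library 1 or het-labelled library 3. Slc25a33 was at 0.47 without het-labelled library 3, and Slc25a36 and Slc25a4 at −0.92 and −0.88 without het-labelled library 2. Other alternatives moved further members as far. Scaled by library size alone, Slc25a1, Slc25a3, Slc25a5, Slc25a10, Slc25a13 and Slc25a39 were at 0.27, 0.22, 0.21, 0.37, 0.25 and 0.38. Against wild-type libraries 1 and 3, Slc25a3, Slc25a39 and Slc25a48 were at 0.27, 0.31 and 0.45. The cause was not tested in any of these. At adjusted p under 0.05, members called were 2 higher and 1 lower against wild-type libraries 2, 4 and 5, and 0 under the other alternatives, leave-one-out fits and the threshold of 0.10 included. At unadjusted p under 0.05, members higher were 1 with library size alone and 2 to 16 as single libraries were left out. Members lower were 4 with RLE, limma-voom and a pseudocount of 1, 5 with DESeq2 and 0 to 4 as single libraries were left out. The shares of all genes at that p were not worked out for these fits, apart from DESeq2. Over all genes, DESeq2 called 100 higher and 76 lower, the fit against wild-type libraries 1 and 3 called 14 and 7, and that against 2, 4 and 5 called 1170 and 1462, while single libraries left out gave 0. No paired analysis was possible because the labels give each animal its own number. None of the 15 members named by the rule stood outside the others by Dixon's test in the 5 wild-type libraries. For the 3 members with a summed count below 10 no difference could be tested, and the part of depth, counting and annotation in their low counts was not tested.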
